A study of Saccharomyces cerevisiae with 8 samples.

Results

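The genes described here encode the proteins of the small (40S) subunit of the cytosolic ribosome of the budding yeast Saccharomyces cerevisiae. They were chosen by name, as every gene called RPS followed by digits and an optional A or B, which leaves out the mitochondrial MRPS genes. The rule found 56 genes among 6225 on the array. They encode 32 proteins: 24 proteins are encoded by a pair of paralogs, named A and B, and the other 8 by a single gene each, among them RPS2, RPS3, RPS12, RPS13, RPS15, RPS20 and RPS31. The probes are listed by systematic name, so the RPS names were assigned through the locus tags of the R64 gene table, and each of the 56 genes had 1 probe. All 56 were well above background on all 8 arrays and all 56 passed the filter on dim probes, which 5490 genes passed in all.

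Total RNA came from cultures of a strain labelled BY4147, with 2 biological replicates in each of 4 groups: htz1D (HTZ1 deleted) with salt, htz1D without salt, WT (HTZ1 intact) with salt and WT without salt. All cultures grew in YPD, a rich glucose medium, from an optical density (OD) of 0.1 to an OD of 1, and those given salt received NaCl to 0.4 M and were harvested 20 minutes later. HTZ1 encodes the histone variant H2A.Z, which the SWR1 complex places in nucleosomes beside promoters. INO80, the remodelling complex in the title of the series, acts on such nucleosomes, and the arrays ask how transcripts respond to salt when Htz1 is present or missing.

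Ribosomal protein genes are among the most highly transcribed genes of growing yeast, and their transcripts are known to fall for a time when cells meet osmotic, heat or nutrient stress. In the small subunit the proteins surround the 18S rRNA in a head, a body and a platform, which together hold the mRNA and form the decoding site. The genome duplication in the ancestry of this yeast left most of these proteins with paralogs whose coding sequences are similar or, for several pairs, nearly identical.

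Each RNA was labelled with Cy3 and hybridised to a single-colour Agilent array. Values are log2 spot intensities minus the 75th percentile of their own array, which ranged over 2740 to 4290 intensity units. The share of spots that stood well above background was 82.2 to 88.9%. Replicates correlated across genes at r = 0.987 to 0.993. HTZ1 was well above background on 4 of 4 WT arrays and on 0 of 4 htz1D arrays, and was at least 75.5-fold lower in htz1D with salt and at least 65.7-fold lower without salt. The cells carried the 5 a mating type markers tested (MFA1, MFA2, STE2, STE6 and BAR1) on all 8 arrays. Of the alpha markers, MF(ALPHA)1 and STE3 stood well above background on 0 arrays, MF(ALPHA)2 on 1 array and SAG1 on all 8. All 8 arrays lay on 1 slide, with the strains in different rows and the salt groups in different columns, so position on the slide and group cannot be told apart.

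Small-subunit genes were lower after salt in both strains. In htz1D, 52 of 56 genes fell and 0 rose, with a median log2 change of −0.89, or 1.85-fold lower. In WT, 49 of 56 fell and 0 rose, with a median log2 change of −0.88, or 1.84-fold lower. Calls here and below are limma tests over all genes with Benjamini-Hochberg adjusted p under 0.05. Over all 5490 genes tested, 28.7% fell and 29% rose with salt in htz1D, 25.2% fell and 30.9% rose in WT, and the median change was 0.01 in htz1D and 0.07 in WT. Changes of the 56 genes ran from −1.77 to −0.37 in htz1D and from −1.43 to 0.11 in WT. The median change of the 56 genes was −0.62 in htz1D and −0.54 in WT with quantile scaling, and −0.64 and −0.62 in the authors' deposited values.

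A change of more than 2-fold was called for 17 genes in htz1D and 18 in WT, against 12.9% and 11.3% of all genes tested in the same comparisons. Both salt arrays lay below both no-salt arrays for 54 of 56 genes in htz1D (38.4% of all genes tested) and for 53 of 56 in WT (37.2% of all genes tested). The exceptions were RPS26A and RPS31 in htz1D, and RPS9A, RPS26A and RPS31 in WT, where the groups overlapped. Signals are from bulk cultures, in which fewer cells with a transcript and less of it per cell cannot be told apart.

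**Figure D1:**
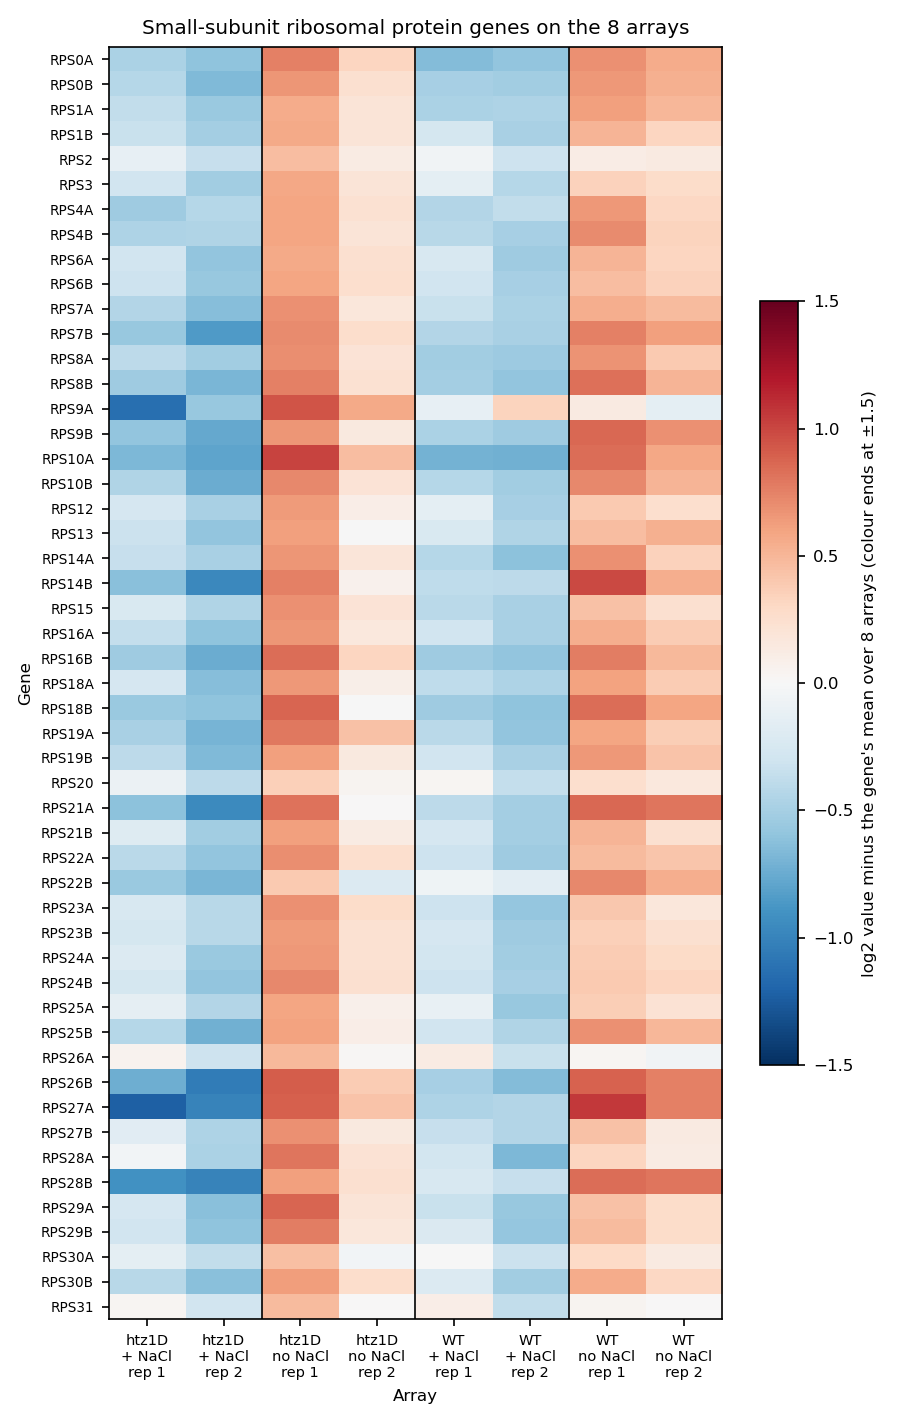
Each row is 1 of 51 of the 56 small-subunit genes and each column 1 of the 8 arrays, in the order htz1D with NaCl, htz1D without NaCl, WT with NaCl and WT without NaCl. Colour gives the log2 value minus the gene's own mean over the 8 arrays; nearly every row is blue with salt and red without it in both strains, while RPS9A, RPS26A and RPS31 overlap between salt and no salt in WT.

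The summed signal of the 56 probes as a share of all probes' signal shows the same change on each array. The share was 11.0 and 9.96% in htz1D with salt, against 16.6 and 14.1% in htz1D without salt. In WT it was 12.0 and 11.0% with salt, against 16.1 and 15.3% without salt. Every salt array lay below every no-salt array in this share. Brightness differs between probes for reasons other than transcript amount, so the share describes signal and not the number of molecules.

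Replicates of a group differed in a way that the small-subunit genes shared. Replicate 1 lay above replicate 2 for 52 of 56 genes in htz1D with salt, for 56 in htz1D without salt, for 51 in WT with salt and for 54 in WT without salt. The median gap over the 56 genes was widest in htz1D without salt, at 0.48, and was 0.23 in htz1D with salt, 0.17 in WT with salt and 0.18 in WT without salt. Over all genes tested the corresponding medians lay between 0.01 and 0.04. Among those genes replicate 1 was higher for 54.4% in htz1D with salt and 52.8% in htz1D without salt. In WT it was higher for 57% with salt and 52.6% without salt. The salt changes of the 56 genes are therefore not independent of each other within a pair of arrays.

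RPS4A, which encodes a protein of the body, lay nearest the median change of the 56 genes in both strains. Its log2 values were 3.67 and 3.77 in htz1D with salt, against 4.79 and 4.43 in htz1D without salt. In WT they were 3.77 and 3.83 with salt, against 4.85 and 4.51 without salt. The salt arrays lay below the no-salt arrays in both strains. RPS4A fell by 0.89 in htz1D (SE 0.17, limma adjusted p = 0.00317) and fell by 0.88 in WT (SE 0.17, limma adjusted p = 0.00355).

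The largest decreases were those of RPS27A, RPS9A, RPS26B, RPS10A and RPS28B in htz1D and of RPS10A, RPS26B, RPS27A, RPS21A and RPS9B in WT. RPS10A, whose protein lies in the head near the mRNA entry side, measured 2.28 and 2.16 in htz1D with salt, against 3.96 and 3.41 in htz1D without salt. In WT it measured 2.24 and 2.23 with salt, against 3.79 and 3.53 without salt. The groups were far apart in both strains. RPS10A fell by 1.47 in htz1D (SE 0.19, limma adjusted p = 0.000517) and fell by 1.43 in WT (SE 0.19, limma adjusted p = 0.000659).

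**Figure D2:**
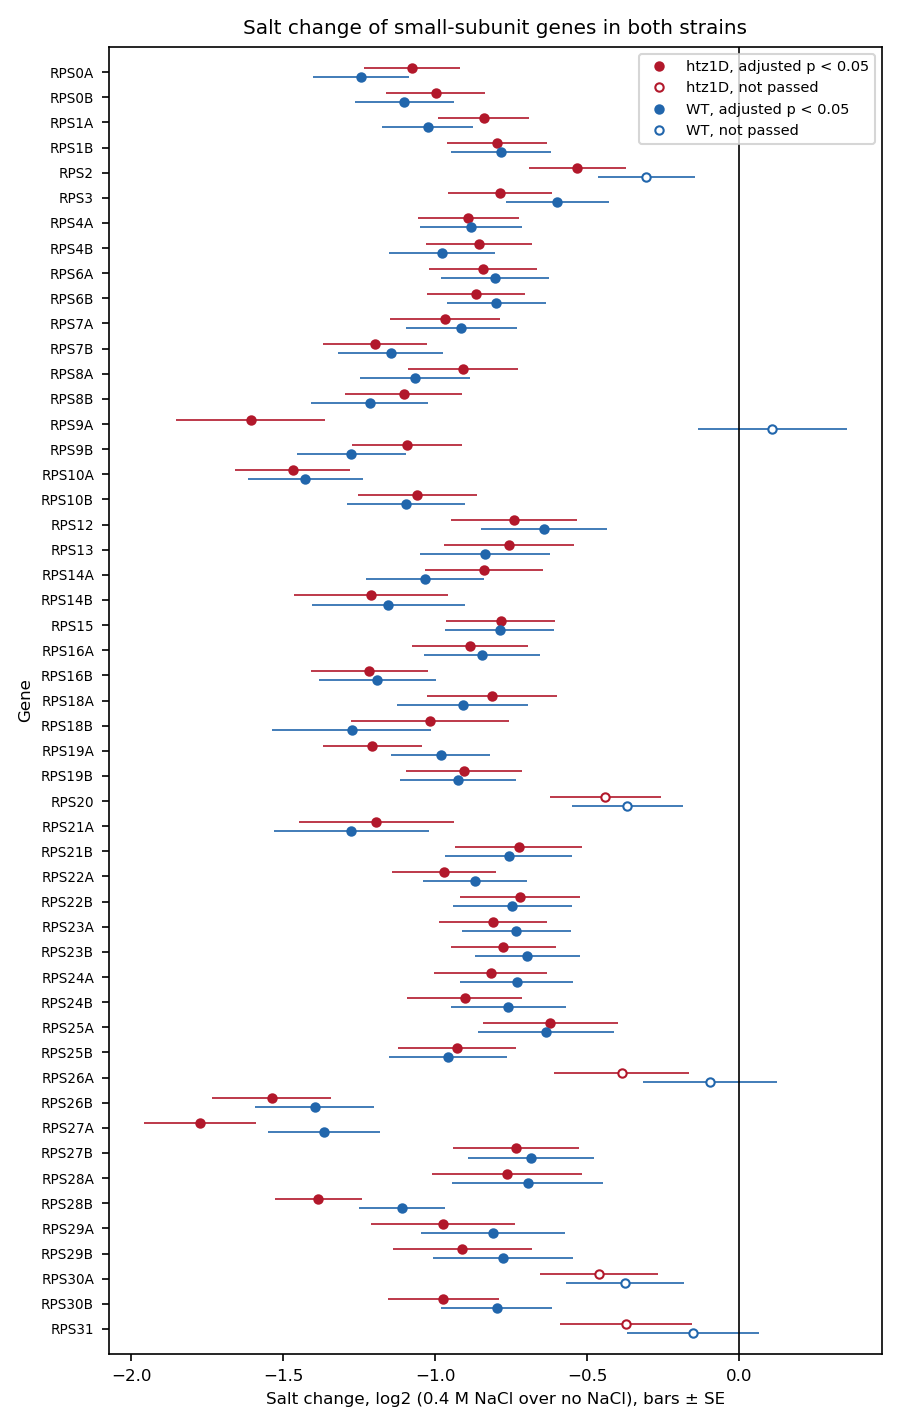
The log2 salt change of 51 of the 56 small-subunit genes is plotted for htz1D (red) and WT (blue), with bars of ± SE from limma and open circles where adjusted p was 0.05 or more. All 51 htz1D points lie left of 0, and RPS9A in WT, at 0.11, is the only point to the right of it.

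Median changes were close to each other in the 3 regions of the subunit. The 22 genes for proteins of the head had a median salt change of −0.90 in htz1D and −0.87 in WT, and 20 and 19 of them fell. The 28 genes for proteins of the body had medians of −0.90 in htz1D and −0.85 in WT, with 27 and 25 called. The 6 genes of the platform (RPS1A, RPS1B, RPS14A, RPS14B, RPS26A and RPS26B) had medians of −0.84 and −1.03, with 5 called in each strain. The platform also held 1 of the smallest and 1 of the largest changes, those of the paralogs RPS26A and RPS26B.

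The 8 genes without a paralog had a smaller median change than the 48 genes with one. Their median was −0.69 in htz1D and −0.49 in WT, with 6 called in htz1D and 4 in WT. The 48 paralogs had a median of −0.91 in both strains, with 46 called in htz1D and 45 in WT. The probes of the single genes were also brighter, with a median processed signal of 223800 against 46570 for the paralogs. Across the 56 genes, the level of a probe and its mean salt change over the strains correlated at r = 0.53, a description over genes that share the same arrays. Among the 14 brightest probes the 7 single genes had a median change of −0.51 and the 7 paralogs −0.74, and the other 42 genes −0.94. No member spot was saturated, and the part of probe brightness in these differences was not tested.

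Among the single genes, RPS15 and RPS13 fell in both strains. RPS15, a head protein that reaches towards the decoding site, measured 5.27 and 5.04 in htz1D with salt, against 6.18 and 5.70 in htz1D without salt. In WT it measured 5.09 and 5.01 with salt, against 5.94 and 5.73 without salt. RPS15 fell by 0.78 in htz1D and fell by 0.79 in WT (SE 0.18 in both, limma adjusted p = 0.00799 and 0.00821), and the groups did not overlap. Leaving out replicate 2 of htz1D with salt ended the call in htz1D, and leaving out replicate 1 of WT without salt ended it in WT.

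RPS13, a body protein near the interface with the large subunit, measured 4.52 and 4.24 in htz1D with salt, against 5.45 and 4.83 in htz1D without salt. In WT it measured 4.61 and 4.39 with salt, against 5.30 and 5.37 without salt. It fell by 0.76 in htz1D (limma adjusted p = 0.0189) and fell by 0.84 in WT (limma adjusted p = 0.013). With quantile scaling the RPS13 change was −0.35 in htz1D and −0.36 in WT (limma adjusted p = 0.0519 and 0.0476). The call in each strain was also lost when single arrays of that strain were left out.

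RPS3 and RPS12, both in the head, were also called in both strains. RPS3, part of the mRNA entry channel, measured 5.92 and 5.68 in htz1D with salt, against 6.78 and 6.39 in htz1D without salt, and 6.05 and 5.77 in WT with salt, against 6.54 and 6.47 in WT without salt. It fell by 0.79 in htz1D and fell by 0.60 in WT (limma adjusted p = 0.00623 and 0.0209). RPS12, in the beak of the head, measured 5.67 and 5.45 in htz1D with salt, against 6.57 and 6.03 in htz1D without salt, and 5.78 and 5.44 in WT with salt, against 6.32 and 6.18 in WT without salt. It fell by 0.74 in htz1D and fell by 0.64 in WT (limma adjusted p = 0.0182 and 0.0331), without overlap between salt and no-salt arrays. With quantile scaling the changes were −0.45 in htz1D and −0.28 in WT for RPS3, and −0.39 in htz1D and −0.30 in WT for RPS12, and the call of RPS12 in WT was lost (limma adjusted p = 0.0599). Normexp background correction ended the calls of both genes in WT and of RPS12 in htz1D, as did leaving out single arrays of the strain.

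RPS2, another protein of the entry channel, measured 6.53 and 6.31 in htz1D with salt, against 7.12 and 6.78 in htz1D without salt, and 6.61 and 6.34 in WT with salt, against 6.77 and 6.79 in WT without salt. Salt arrays lay below no-salt arrays in each strain. The change was −0.53 in htz1D (limma adjusted p = 0.024) and −0.31 in WT (limma adjusted p = 0.141). Which strain passed depended on the processing. With quantile scaling RPS2 was at −0.16 in htz1D and −0.27 in WT and passed in neither (limma adjusted p = 0.242 and 0.0592), and in the authors' deposited values it passed in both, at −0.24 in htz1D and −0.30 in WT (limma adjusted p = 0.0393 and 0.0167). The htz1D call was also lost with normexp background correction and without replicate 2 of htz1D with salt or replicate 1 of htz1D without salt. The interaction test gave limma adjusted p = 0.81, so a difference between the strains was not called.

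RPS20 and RPS31 passed in neither strain by the test without a replicate block. RPS20, a head protein that is ubiquitinated when ribosomes collide, measured 5.39 and 5.09 in htz1D with salt, against 5.84 and 5.52 in htz1D without salt, and 5.51 and 5.13 in WT with salt, against 5.73 and 5.64 in WT without salt. RPS31, made as a fusion with ubiquitin, measured 6.80 and 6.47 in htz1D with salt, against 7.24 and 6.77 in htz1D without salt, and 6.87 and 6.40 in WT with salt, against 6.81 and 6.77 in WT without salt. RPS20 values did not overlap between salt and no salt, and RPS31 values did in both strains. The changes were −0.44 in htz1D and −0.37 in WT for RPS20 (limma adjusted p = 0.0749 and 0.125), and −0.37 in htz1D and −0.15 in WT for RPS31 (limma adjusted p = 0.181 and 0.584). With the replicate number as a block RPS20 passed in both strains (limma adjusted p = 0.00931 in htz1D and 0.0194 in WT) and RPS31 in htz1D (0.0427) but not in WT (0.339). The labels do not say that the numbers pair the arrays. RPS20 was at −0.03 in both strains with quantile scaling, and RPS31 at 0.06 in htz1D in the authors' deposited values.

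Both paralogs of a protein fell with salt in 22 of 24 pairs in htz1D and in 21 of 24 in WT. The same count was not made for other pairs. Of the 80 large-subunit genes 73 fell and 0 rose in htz1D, and 69 fell and 1 rose in WT. The sizes often differed within a pair. The A minus B difference in log2 value was tested on each array, so that a shift shared by both genes drops out, with Benjamini-Hochberg adjustment over the 60 A/B pairs on the array. In htz1D 14 of 24 pairs changed unequally, in 8 of which the A gene had the higher (less negative) change. In WT 13 of 24 did, 8 of them with the A gene higher. Over all 60 pairs 55% changed unequally in htz1D and 50% in WT, and over the 36 pairs that encode other proteins 52.8% and 47.2%, so the small-subunit share is near that of other pairs. The median absolute difference within small-subunit pairs was 0.28 in htz1D.

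Of these pairs, 10 were called in both strains, all with the same sign, among them RPS7, RPS10, RPS16, RPS21, RPS25, RPS26, RPS27, RPS28 and RPS30. They are 71.4% of the pairs called in htz1D and 76.9% of those called in WT. Of all 24 pairs, 14 were called in htz1D and 13 in WT, so some shared calls would arise in any case. The changes in the strains share no arrays, but each pair has the same SE in both, estimated over all 8 arrays. A pair with a small SE is thus more easily called in both strains, and the calls are not independent. Whether the overlap exceeds that of unrelated calls was not tested. The gene with the dimmer probe fell more in 10 of the 14 pairs called in htz1D and in 10 of the 13 called in WT. The part of probe brightness in the differences was not tested.

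**Figure D3:**
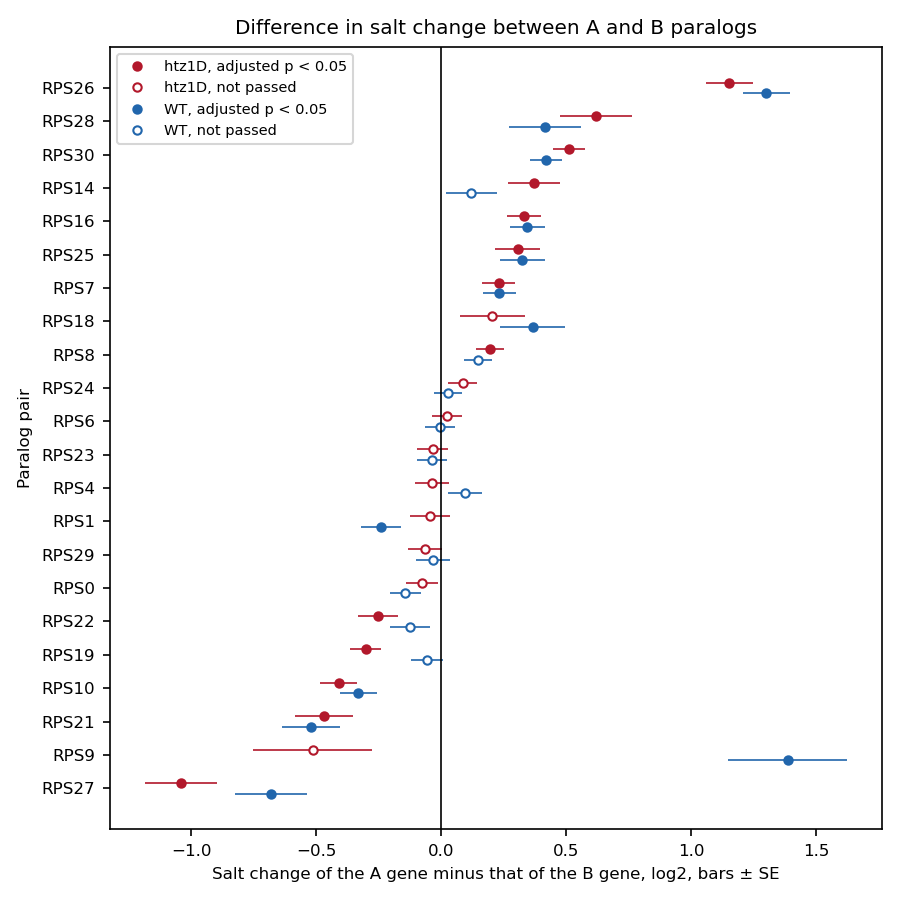
For 22 of the 24 pairs the salt change of the A gene minus that of the B gene is plotted on a log2 scale for htz1D (red) and WT (blue), with bars of ± SE and open circles where adjusted p was 0.05 or more. RPS26 lies far to the right and RPS27 to the left in both strains, and RPS9 is at −0.51 in htz1D and 1.39 in WT.

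RPS26, a platform protein that contacts the mRNA at the exit channel, had the largest paralog difference in htz1D. RPS26A measured 6.52 and 6.16 in htz1D with salt, against 6.96 and 6.49 in htz1D without salt, and 6.59 and 6.14 in WT with salt, against 6.51 and 6.42 in WT without salt. RPS26B measured 3.89 and 3.57 in htz1D with salt, against 5.53 and 5.01 in htz1D without salt, and 4.12 and 3.97 in WT with salt, against 5.50 and 5.38 in WT without salt. The salt and no-salt arrays overlapped for RPS26A and were far apart for RPS26B in both strains. RPS26B fell by 1.54 in htz1D and fell by 1.40 in WT, and the changes of RPS26A (−0.39 and −0.10) did not pass, except that of htz1D with the replicate block (limma adjusted p = 0.0284). The A minus B difference was 1.15 in htz1D (SE 0.09, limma adjusted p = 4.74e-05) and 1.30 in WT (SE 0.09, limma adjusted p = 1.92e-05).

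RPS27, a zinc-binding protein of the body, differed in the other direction. RPS27A measured 0.37 and 0.59 in htz1D with salt, against 2.49 and 2.02 in htz1D without salt, and 1.13 and 1.15 in WT with salt, against 2.65 and 2.35 in WT without salt. RPS27B measured 5.31 and 5.02 in htz1D with salt, against 6.17 and 5.63 in htz1D without salt, and 5.13 and 5.04 in WT with salt, against 5.92 and 5.62 in WT without salt. Both genes were lower on every salt array of their strain, and RPS27A changed more. RPS27A fell by 1.77 in htz1D, the largest of the 56 changes and a 3.42-fold decrease, and fell by 1.36 in WT. RPS27B fell by 0.73 in htz1D and fell by 0.68 in WT, and was at −0.35 and −0.30 without passing when quantile scaling was used. Its calls were also lost in both strains with normexp background correction (limma adjusted p = 0.0638 and 0.0508), and when single arrays of the strain were left out. The A minus B difference was −1.04 in htz1D (limma adjusted p = 0.000741) and −0.68 in WT (limma adjusted p = 0.00631), where it was not called without either WT array without salt.

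RPS28 is a head protein, and Rps28b is known to bind its own mRNA and promote its decay through Edc3. RPS28A measured 5.04 and 4.60 in htz1D with salt, against 5.88 and 5.29 in htz1D without salt, and 4.81 and 4.40 in WT with salt, against 5.40 and 5.21 in WT without salt. RPS28B measured 1.30 and 1.20 in htz1D with salt, against 2.82 and 2.45 in htz1D without salt, and 1.97 and 1.86 in WT with salt, against 3.04 and 3.01 in WT without salt. RPS28B changed by −1.38 in htz1D and −1.11 in WT, and both passed. RPS28A changed by −0.76 in htz1D and −0.70 in WT, close to the threshold (limma adjusted p = 0.0322 and 0.0461). It did not pass in either strain with quantile scaling (−0.31 and −0.17, limma adjusted p = 0.115 and 0.357) or in the authors' deposited values (−0.25 and −0.34, limma adjusted p = 0.222 and 0.109), nor with normexp background correction. Within the pair, A minus B was 0.62 in htz1D (limma adjusted p = 0.00852) and 0.41 in WT (limma adjusted p = 0.0448). The pair's difference in WT was lost with normexp background correction and without replicate 1 of WT with salt or either WT array without salt, and with quantile scaling it was 1.00 in htz1D and 0.76 in WT and passed.

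RPS21 and RPS30, both in the body, had the next largest differences called in both strains. RPS21A measured 1.40 and 1.06 in htz1D with salt, against 2.83 and 2.01 in htz1D without salt, and 1.63 and 1.50 in WT with salt, against 2.87 and 2.81 in WT without salt. RPS21B measured 1.96 and 1.63 in htz1D with salt, against 2.76 and 2.28 in htz1D without salt, and 1.91 and 1.64 in WT with salt, against 2.66 and 2.40 in WT without salt. RPS21A had the larger fall, with an A minus B difference of −0.47 in htz1D and −0.52 in WT (limma adjusted p = 0.0117 and 0.00768). Normexp background correction and leaving out replicate 1 of htz1D without salt ended the call in htz1D, and leaving out replicate 1 of WT with salt or replicate 2 of WT without salt ended it in WT.

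RPS30A measured 1.95 and 1.72 in htz1D with salt, against 2.54 and 2.06 in htz1D without salt, and 2.09 and 1.78 in WT with salt, against 2.39 and 2.23 in WT without salt. RPS30B measured 0.92 and 0.70 in htz1D with salt, against 1.97 and 1.60 in htz1D without salt, and 1.13 and 0.82 in WT with salt, against 1.90 and 1.65 in WT without salt. RPS30B fell by 0.97 in htz1D and fell by 0.80 in WT, and RPS30A (−0.46 and −0.38) did not pass in either strain without the replicate block and passed in both with it (limma adjusted p = 0.00916 and 0.0207). The RPS30B change in WT was −0.67 without replicate 1 of WT without salt, and its call was lost. Between the paralogs the difference was 0.51 in htz1D and 0.42 in WT (limma adjusted p = 0.000474 and 0.0019).

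The other pairs called in both strains had smaller differences. For RPS10 the A minus B difference was −0.41 in htz1D and −0.33 in WT. It was 0.33 and 0.34 for RPS16, 0.31 and 0.32 for RPS25, and 0.23 in both strains for RPS7. The calls of RPS25 and RPS7 in both strains and of RPS10 in WT were lost when single arrays of the strain were left out, and that of RPS25 in WT also with quantile scaling (0.17) and in the authors' deposited values (0.20).

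A difference was called in neither strain for 7 pairs, among them RPS0, RPS4, RPS6, RPS23, RPS24 and RPS29. For RPS6, whose protein is phosphorylated in response to nutrients, the 95% interval of the A minus B difference ran from −0.12 to 0.16 in htz1D and from −0.14 to 0.14 in WT. For RPS23 it ran from −0.18 to 0.11 in both strains. The coding sequences of several such pairs are nearly identical. The probe sequences were not used here, so signal of one paralog on the probe of the other cannot be told apart from equal change.

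RPS9 is a body protein that binds the rRNA early in assembly. Like RPS26A and RPS30A, RPS9A did not pass in WT, and unlike them it was called in htz1D. RPS9A measured 0.17 and 0.73 in htz1D with salt, against 2.24 and 1.87 in htz1D without salt, and 1.17 and 1.63 in WT with salt, against 1.43 and 1.15 in WT without salt. RPS9B measured 3.99 and 3.82 in htz1D with salt, against 5.25 and 4.74 in htz1D without salt, and 4.12 and 4.06 in WT with salt, against 5.45 and 5.27 in WT without salt. RPS9A was separated by salt in htz1D and overlapped in WT, and RPS9B was separated in both. RPS9A fell by 1.61 in htz1D (SE 0.25, limma adjusted p = 0.00118), and its change of 0.11 in WT did not pass (SE 0.25, limma adjusted p = 0.726). RPS9B fell by 1.09 in htz1D and fell by 1.28 in WT.

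**Figure D4:**
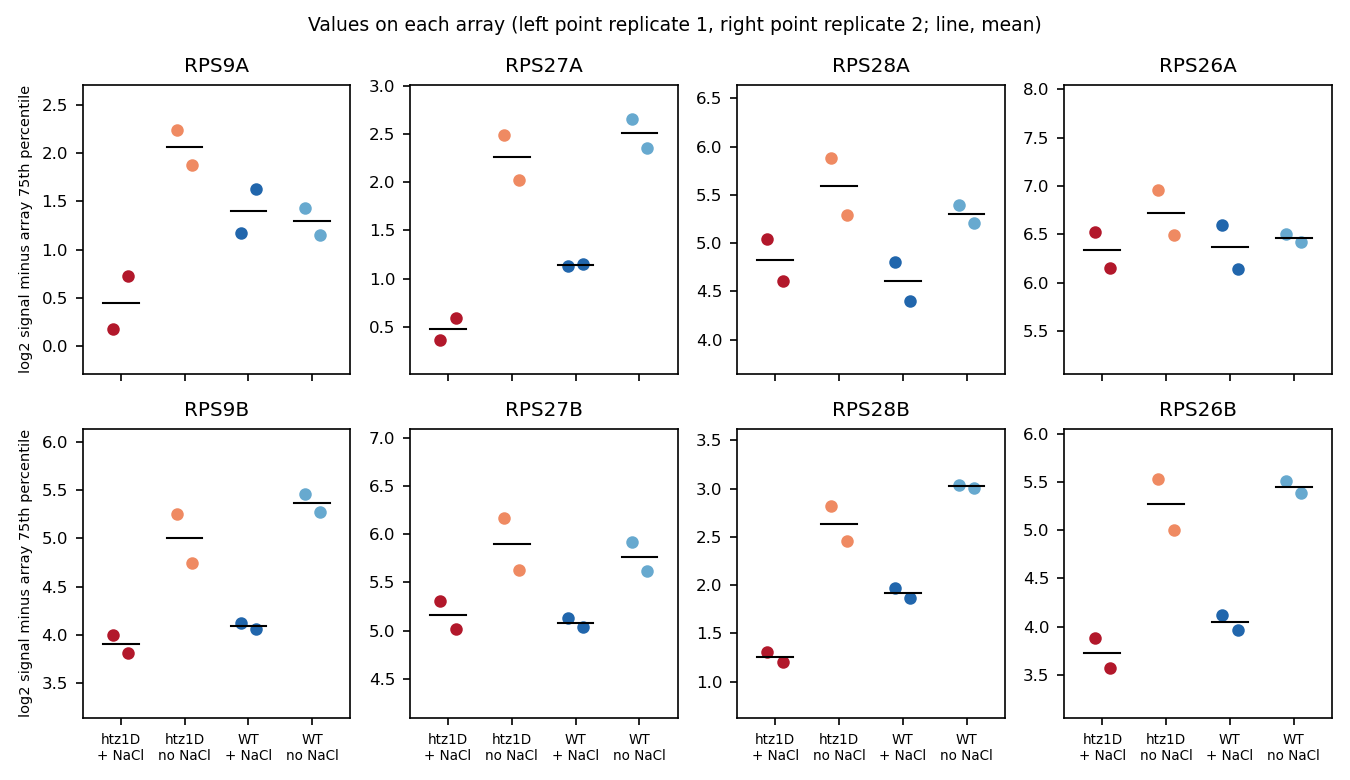
Points are the log2 values of the A and B genes of RPS9, RPS27, RPS28 and RPS26 on each array, with replicate 1 left and replicate 2 right in each group and a line at the group mean, and each panel spans 3 log2 units on its own scale. RPS9A is lowest in htz1D with salt (0.17 and 0.73) and highest in htz1D without salt (2.24 and 1.87), while RPS26A differs little between the groups.

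Without salt, the deletion changed no small-subunit gene past the threshold. In htz1D against WT 0 of 56 were called by limma, where 13.2% of all genes tested were called. The unadjusted limma p was under 0.05 for 1698 of 5490 genes tested and for 3 of the 56. The median difference was −0.02, and the single differences ran from −0.54 for RPS22B to 0.77 for RPS9A. RPS22B, a body protein gene whose intron holds a small nucleolar RNA, measured 2.55 and 1.95 in htz1D, against 2.88 and 2.70 in WT. Both htz1D arrays lay below both WT arrays for RPS9B, RPS22B and RPS28B (33.1% of all genes tested) and above them for 2 genes, RPS9A among them (24.8% of all genes tested). The limma adjusted p was 0.0845 for RPS9A, 0.115 for RPS22B and 0.116 for RPS28B.

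The authors' deposited values gave 9 called genes in that comparison, all lower, at a median of −0.19. The share of all genes called was not counted for this or the other alternative settings, so these counts have no background beside them. The replicate block gave 2, and leaving out replicate 1 of htz1D without salt gave 5.

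With salt, 3 of the 56 genes were lower in htz1D than in WT and 0 were higher, against 16% of all genes tested lower and 5.61% higher. The median difference was −0.05. The log2 difference was −0.66 for RPS28B (SE 0.14, limma adjusted p = 0.0193), −0.95 for RPS9A (SE 0.25, limma adjusted p = 0.0334) and −0.66 for RPS27A (SE 0.18, limma adjusted p = 0.0439). Both htz1D arrays lay below both WT arrays for each of them, which held for 9 of the 56 genes and for 40.6% of all genes tested. They lay above them for RPS8A alone, 1 of 56, and for 25.6% of all genes tested. RPS22B (−0.52, limma adjusted p = 0.106) and RPS14B (−0.41, limma adjusted p = 0.289) had the next largest differences and did not pass.

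RPS14B encodes a platform protein whose excess is known to repress RPS14B expression. It measured 0.08 and −0.26 in htz1D with salt, against 0.32 and 0.32 in WT with salt, and 1.47 and 0.78 in htz1D without salt, against 1.69 and 1.25 in WT without salt. RPS22B measured 1.59 and 1.46 in htz1D with salt, against 2.09 and 2.00 in WT with salt. With salt the htz1D arrays lay below the WT arrays for both genes.

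These 3 calls were close to the threshold. None held with normexp background correction (0 genes called), quantile scaling called 6 genes and the authors' deposited values 12, all lower in htz1D. The share of all genes called in these settings was not counted, so the counts are not read as particular to the small-subunit genes. Median scaling, and the fit with no filter on dim probes, each left 1, RPS28B. Leaving out replicate 1 of htz1D with salt or replicate 2 of WT with salt left 0 called, and leaving out either of the other salt arrays left 1, RPS9A.

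The A minus B difference set the strains apart for some pairs. With salt 8 of 24 pairs differed (31.7% of all 60 pairs, 30.6% of the 36 other pairs), and without salt 6 of 24 (25% of all 60 pairs and of the 36 others), so the shares are near those of other pairs. RPS9, RPS21, RPS22, RPS26 and RPS28 were called in both conditions, and RPS9 alone of them changed sign. With salt RPS21 and RPS26 were close to the threshold (limma adjusted p = 0.0492 for both). RPS21 passed in neither condition with quantile scaling (limma adjusted p = 0.0794 with salt and 0.0592 without salt). With salt, RPS21 was also lost with normexp background correction and RPS26 in the fit of only 2 groups (limma adjusted p = 0.101 and 0.175). Calls of both pairs were lost in each condition without single arrays. The number of pairs with salt was 1 without replicate 2 of WT with salt and 4 to 7 without any other array, and the number without salt was 1 without either WT array of that condition, 2 without replicate 2 of htz1D without salt and 5 to 8 without any other array. For RPS28 the A minus B difference between htz1D and WT was 0.88 with salt and 0.67 without salt (limma adjusted p = 0.00498 and 0.0101). For RPS22 it was 0.44 with salt and 0.57 without salt (limma adjusted p = 0.00796 and 0.00186), with RPS22A at −0.08 and 0.03 and RPS22B at −0.52 and −0.54. The RPS28 difference without salt did not pass without replicate 1 of htz1D or either WT array of that condition (limma adjusted p = 0.0635, 0.0802 and 0.124), and the one with salt passed in every setting run. RPS22 passed in neither condition with quantile scaling (limma adjusted p = 0.0529 with salt and 0.135 without salt), and with salt it did not pass without replicate 2 of WT with salt. The strain difference was larger in the B gene than in the A gene of both pairs.

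The salt response itself differed between strains for no single gene and for 1 pair. The interaction, the log2 salt change in htz1D minus that in WT, was called by limma for 0 of 56 genes and 0.911% of all genes tested. Its unadjusted limma p was under 0.05 for 664 of 5490 genes tested and for 1 of the 56. Its median was −0.05. RPS9A had the largest value, −1.72 (SE 0.35), with limma adjusted p = 0.0866. RPS27A (−0.41), RPS26A (−0.29), RPS28B (−0.27) and RPS18B (0.26) followed. RPS18B, a head protein gene, measured 2.02 and 1.98 in htz1D with salt, against 3.46 and 2.58 in htz1D without salt, and 2.05 and 1.98 in WT with salt, against 3.41 and 3.17 in WT without salt. It was lower with salt in both strains without overlap.

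For the RPS9 pair the A minus B interaction was −1.90 (SE 0.34, limma adjusted p = 0.0107), the only call among the 24 pairs, where 5% of all 60 pairs and 5.56% of the 36 others were called. It combined an A minus B salt change of −0.51 in htz1D (limma adjusted p = 0.108) and of 1.39 in WT (limma adjusted p = 0.0033). The htz1D value rested on single arrays: it was −0.15 without replicate 1 of htz1D with salt (limma adjusted p = 0.511) and −0.88 without replicate 2 of that group (limma adjusted p = 0.00259). It passed with quantile scaling (−0.82, limma adjusted p = 0.00824), in the authors' deposited values (−0.61, limma adjusted p = 5e-05) and with the replicate block (limma adjusted p = 0.0334). Without salt RPS9A stood higher relative to RPS9B in htz1D than in WT by 1.13 (limma adjusted p = 0.0101), while the same difference with salt was −0.77 (limma adjusted p = 0.0445). The interaction was −1.95 without replicate 1 of WT without salt and −1.85 without replicate 2 of that group, and did not pass in either case (limma adjusted p = 0.118 and 0.149). The difference with salt also fell short of the threshold when replicate 1 of htz1D with salt, replicate 2 of WT with salt or any array without salt was left out. The difference without salt did so without replicate 2 of htz1D without salt and without either WT array of that condition.

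Across the 56 genes the salt changes of the strains, which share no arrays, correlated at Pearson r = 0.63 and Spearman rho = 0.79, and 55 had the same sign. Over the 80 large-subunit genes r was 0.90 and rho 0.933, and over all genes r was 0.94 and rho 0.925. The genes share arrays and a narrow range of change, so these are descriptions.

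Large-subunit genes (RPL and RPP, 80 tested) had medians close to those of the small subunit. In htz1D 73 fell and 0 rose, with a median of −0.89, and in WT 69 fell and 1 rose, with a median of −0.91. RPL15B was the gene that rose in WT (1.08), and it was at 0.57 in htz1D and did not pass there. ASC1, the 40S-bound homologue of RACK1, fell by 0.56 in htz1D and fell by 0.45 in WT, and STM1, which clamps idle ribosomes, fell by 0.70 and fell by 0.72.

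**Figure D5:**
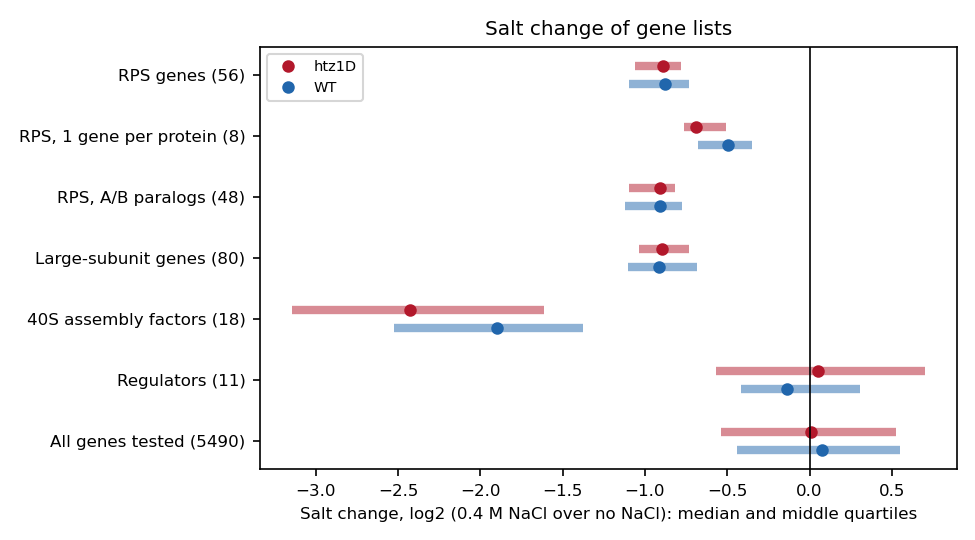
Points are the median log2 salt change of each gene list in htz1D (red) and WT (blue), and the bars span the middle quartiles over its genes, with the number of genes in brackets. Small- and large-subunit genes lie near −0.9, assembly factors of the 40S subunit at −2.43 and −1.90, and all genes tested near 0.

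The 18 factors that assemble the 40S subunit in the nucleolus and cytoplasm had larger median decreases than the genes of the proteins they handle. In both strains 17 fell and 1 rose, with a median change of −2.43 in htz1D and −1.90 in WT. ENP1, which joins the head early, fell by 4.48 in htz1D and fell by 3.09 in WT, and RRP12, an export factor, fell by 3.73 and fell by 3.67. LTV1, which holds the head until late assembly, fell by 2.74 and fell by 3.21. PNO1, a partner of the nuclease Nob1, was not well above background on either htz1D array with salt, and was at least 10.1-fold lower there than in htz1D without salt. HRR25, a casein kinase that releases Ltv1, rose by 0.50 in htz1D and by 0.69 in WT.

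Between the strains, 10 of 18 factors were lower in htz1D than in WT with salt, where 16% of all genes tested were lower, and 3 of 18 without salt, where 6.17% were. Their median strain difference was −0.66 with salt and −0.22 without salt, and in the authors' deposited values −0.26 and −0.24. The interaction was called for 0 of 18 by limma (0.911% of all genes tested), so a stronger response in htz1D was not called for any single factor. Its unadjusted limma p was under 0.05 for 8 of the 18 and for 664 of 5490 genes tested.

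Of 11 regulators of ribosomal protein genes, 3 rose and 3 fell with salt in htz1D, and 2 rose and 3 fell in WT. These shares are near or below those of all genes tested (29% rose and 28.7% fell in htz1D, 30.9% and 25.2% in WT), so the counts are not particular to the regulators. TOD6, a repressor of ribosome biogenesis genes, fell by 3.84 in htz1D and fell by 3.25 in WT. IFH1, the coactivator that joins Fhl1 at these promoters, fell by 1.19 and fell by 0.80. FHL1 fell by 0.78 and by 0.51, and was well above background on only 1 of 2 salt arrays of htz1D. STB3, a repressor that binds upstream of biogenesis genes, rose by 0.93 and by 0.86, and DOT6, the paralog of TOD6, rose by 0.78 in htz1D and was at 0.22 in WT without passing. SFP1 rose by 0.62 in htz1D and was at 0.40 in WT without passing. CRF1, a corepressor, passed in WT but was well above background on 1 of 2 salt arrays and 0 of 2 no-salt arrays of WT, so no fold is given. RAP1, HMO1, ABF1 and SCH9 passed in neither strain.

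The 56 genes lie on 14 chromosomes. By gene order in the R64 table, 7 neighbouring pairs of ribosomal protein genes include a small-subunit gene. RPS14B, RPS22A and RPL39 follow each other on chromosome X, with salt changes in htz1D of −1.21, −0.97 and −0.72 and in WT of −1.15, −0.87 and −0.62. RPS16 and RPL13 are neighbours in both copies: RPS16B beside RPL13A was at −1.22 in htz1D and −1.19 in WT, and RPS16A beside RPL13B at −0.88 and −0.85.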

How the data were processed

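Total RNA of 8 yeast cultures was measured on 8 single-colour arrays, 2 for each combination of strain (htz1D, WT) and salt (0.4 M NaCl or none), grouped by the sample labels. The deposited scanner files hold intensity values, and their headers name Agilent Feature Extraction 10.7.3.1 as the reader. These processed intensities were background-subtracted and detrended within each array, per the file headers, which name the sacCer2 build. The deposited value table of the series holds log2 values of 6187 probes with column medians between 10.55 and 10.57, and how these were normalized is not stated in the sources used here. Per the submitters' processing notes the tool was limma, with no version stated.

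From the scanner files, 86 outlier-flagged spots and all control spots were left out, log2 processed signals were reduced by the array's 75th percentile, and the 2 spots of a probe were averaged. Genes were kept for testing where both arrays of some group showed the probe well above background, and the brightest of several probes was used. Systematic names of the probes were matched to the locus tags of the R64 table (5748 probes matched, 508 not), and no coordinates were taken from it.

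Tests used limma 3.58.1 in R 4.3.3 with 4 group means over 8 arrays (4 residual degrees of freedom) and Benjamini-Hochberg adjustment over 5490 genes, or over 60 A/B pairs for the A minus B differences. Standard errors (SE) are moderated. Both tests were checked on simulated data for salt in WT. With 200 of 5490 genes changed, the gene test recovered 9% of log2 changes of 0.5, with 5 false calls. It recovered 61% of log2 changes of 1, again with 5 false calls. With 20 of 60 pairs changed, the pair test recovered 100% at both sizes, with 0 false calls. That figure does not hold for every pair in the data. The RPS9 salt difference of −0.51 in htz1D (SE 0.24) did not pass (limma adjusted p = 0.108). A gene that did not pass may thus still differ by such amounts, and a pair that did not pass may still differ by 0.5. Alternatives were another background correction, 2 other scalings, the deposited values, 2 other filters, the mean over probes, the replicate number as a block, fits of the 2 groups alone, and leaving out each array.

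Per-array values were given for the single-copy genes, the 5 genes with the largest change in a comparison, the gene nearest the median and the 6 pairs with the largest difference called. The gene list, the other lists and these rules were chosen with earlier results of these data known. Some genes of the set are counted but not reported here by name. The number of arrays limits the precision. The design text calls the cultures biological replicates.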

Additional observations from a re-analysis of the deposited data

Results flagged for a closer look

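The salt response of RPS9A relative to RPS9B differed between the strains with all 8 arrays, by a test of the difference itself. The A minus B interaction was −1.90 (SE 0.34, limma adjusted p = 0.0107 over 60 pairs), with an A minus B salt change of −0.51 in htz1D and 1.39 in WT. The htz1D value did not pass (limma adjusted p = 0.108) and rested on single arrays. Leaving out replicate 1 or 2 of WT without salt gave an interaction of −1.95 or −1.85, which did not pass.

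RPS9A alone drew attention because htz1D and WT differed in opposite directions with and without salt. On every array pair it was lower in htz1D than in WT with salt and higher in htz1D than in WT without salt. The difference between these was −1.72 and was tested as the interaction, which did not pass over all genes (limma adjusted p = 0.0866, and 0.0628 to 0.386 over the alternatives run). The cause was not tested for either result.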

How the results depend on the processing

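Under the settings other than leaving out an array, 39 (normexp background) to 56 (replicate block) of the 56 genes fell with salt in htz1D and 41 (normexp background) to 52 (replicate block) in WT, with 0 rising. Normexp background correction ran on the median spot signal in place of the mean, a choice made after seeing the data. It gave 0 genes that differed between htz1D and WT with salt, and 11 pairs without salt. Quantile scaling gave median salt changes of −0.62 in htz1D and −0.54 in WT, 6 genes differing between strains with salt and 1 without salt, and turned the RPS22A minus RPS22B salt change in htz1D to 0.064, against −0.25. The authors' deposited values gave medians of −0.64 and −0.62, with 12 genes differing between strains with salt and 9 without salt. Median scaling and no filter on dim probes each gave 1 gene with salt. Median scaling moved the median of all genes with salt to 0.08, against −0.07, and that of the 56 genes to 0.11, against −0.05. Normexp moved the median of all genes to −0.19 for salt in htz1D, −0.22 for the interaction and 0.12 for the strains without salt. Fits of only the 2 groups compared gave 5 pairs with salt and 10 without salt. The shares of all genes and of all A/B pairs called were not counted under any alternative setting, and the causes were not tested.

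With the replicate block, 2 genes differed between strains without salt, and no other count of small-subunit genes or pairs moved by over 1.5 times. RPS20 and RPS30A then passed with salt in both strains, and RPS26A and RPS31 in htz1D. The deviations of replicates with the same number correlated between groups at r = 0.15 to 0.41 over all genes, with 2 pairs per comparison, and the labels give the numbers no meaning beyond the replicate.

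Leaving out 1 array at a time gave 36 to 54 genes falling with salt in htz1D, and 32 (without replicate 1 of WT without salt) to 49 in WT. The median salt change ran from −1.13 to −0.65 in htz1D and from −0.95 to −0.77 in WT. Between strains, 0 to 4 genes differed with salt and 0 to 5 without salt, with medians of −0.18 to 0.04 and −0.25 to 0.18, and the interaction gave 0 genes and medians of −0.28 to 0.21. Unequal pairs numbered 10 to 14 for salt in htz1D, 6 to 13 for salt in WT, 1 to 7 between strains with salt, 1 to 8 without salt and 0 to 2 for the interaction. For salt in WT the count was 6 without replicate 1 of WT without salt, and 7 without replicate 2 of that group or replicate 1 of WT with salt. Between strains with salt it was 1 without replicate 2 of WT with salt, 4 without replicate 1 of htz1D with salt and 5 without either WT array without salt. Between strains without salt it was 2 without replicate 2 of htz1D without salt and 1 without either WT array of that condition. The 2 interaction calls came without replicate 2 of htz1D with salt. Of 84 calls of named genes and pairs, 50 were lost under at least 1 setting and 1 changed sign. The number of arrays, 2 per group, limits what can be read from genes that did not pass.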
